A study of Homo sapiens with 95 samples.

Results

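NRG1 overexpression was compared with the HcRed vector control in DMSO-treated AALE cells, which are bronchial epithelial cells of human origin made immortal in culture, by sparse full length (SFL) sequencing, a pooled RNA-seq method in which every sample carries its own barcodes. The comparison used 6 of the 95 SFL libraries, the 3 labelled NRG1 with DMSO and the 3 labelled HcRed with DMSO, and the 14053 of 27978 listed genes whose mean count over these 6 libraries was above 1. HcRed is a vector with a red fluorescent reporter and no other insert, DMSO is the solvent of the carcinogens used elsewhere in the study, and both lines share the AALE background with the products that immortalized it. The remaining lines were AALE cells overexpressing NRF2, FGFR1 or PIK3CA, with the same HcRed control, and AALE cells with a CRISPR knockout of FAT1 or CDKN2A, whose control carried Cas9 with GFP and no guide RNA. Each line was also exposed, in separate samples, to each of 3 carcinogens, namely the tobacco nitrosamine NNK at 490 μM, the combustion product benzo(a)pyrene (BaP) at 173 μM, and condensate of cigarette smoke (CSC) at 24 μg/ml. The cells were plated in 24-well plates, and the labels name 1 line per perturbation, so that the replicates measure the spread between wells or libraries, and NRG1 and any other difference between the 2 lines cannot be told apart.

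Neuregulin 1 (NRG1) is a secreted or membrane-bound growth factor of the EGF family. It binds the receptors ERBB3 and ERBB4, which pair with ERBB2 and signal through the RAS-ERK and PI3K-AKT pathways. ERK signalling induces early transcription factors within minutes and then its own inhibitors, among them the DUSP phosphatases and the Sprouty proteins. In the airway, basal cells are held by keratins, desmosomes and hemidesmosomes, and they can turn to squamous cells that make envelope proteins.

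Counted reads per library ranged from 694898 to 1173281 with HcRed and from 832996 to 1369499 with NRG1 (287446 to 2116383 over the series), so that 3 reads correspond to between 2.25 and 4.31 CPM, reads per 1000000 counted, in these 6 libraries. Levels below are CPM scaled by TMM over all 95 libraries, and a log2 fold change is that of NRG1 minus HcRed in limma-voom. All 10 markers of airway basal cells had reads in each of the 6 libraries, summing to between 7696 and 8053 CPM with HcRed and between 5531 and 5728 CPM with NRG1. Markers of other cells were near 0, with sums of 0 to 4.86 CPM for the 5 ciliated, the 5 secretory and the 4 alveolar type 2 genes. They reached 27.3 CPM for 5 fibroblast genes and 14.9 CPM for 5 leukocyte and endothelial genes, and SCGB1A1, SFTPC, COL1A2, COL3A1 and PTPRC had no read in any of the 6. Of the longer lists, 5 ciliated, 2 alveolar type 2, 3 fibroblast and 2 leukocyte and endothelial genes passed the filter. None was called between the lines, against 2.04% of all genes tested. With so few genes this count is not read as a result.

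NRG1 (chr8:31496738-32713184, GRCh37) checks the labels. It had 31, 12 and 13 reads in the HcRed libraries and 9118, 5434 and 6107 reads in the NRG1 libraries, which is 26.8, 17.2 and 12.9 CPM in the HcRed libraries and 6827, 6599 and 6874 CPM in the NRG1 libraries (log2 fold change 8.47, SE 0.21, adjusted p = 1.5e-130). The 12 libraries of the NRG1 line, over all 4 treatments, lay between 4715 and 6874 CPM, and the 83 libraries of the other 7 lines between 3.35 and 372 CPM with a median of 21.3. The files give 1 count per gene, so that reads of the construct and of the cells' own gene cannot be told apart. In the other lines, 5 libraries had over 100 reads of NRG1, namely FGFR1 with DMSO replicates 2 and 3, CDKN2A with DMSO replicate 3, NRF2 with CSC replicate 3 and FGFR1 with BaP replicate 2. The other FGFR1 library with DMSO was at 16.5 CPM and these 2 at 353 and 372 CPM. In the comparison with the other lines, the NRG1 difference and the count of called genes are given with and without the 3 such libraries with DMSO. All other values of that comparison are given with them only.

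**Figure D1:**
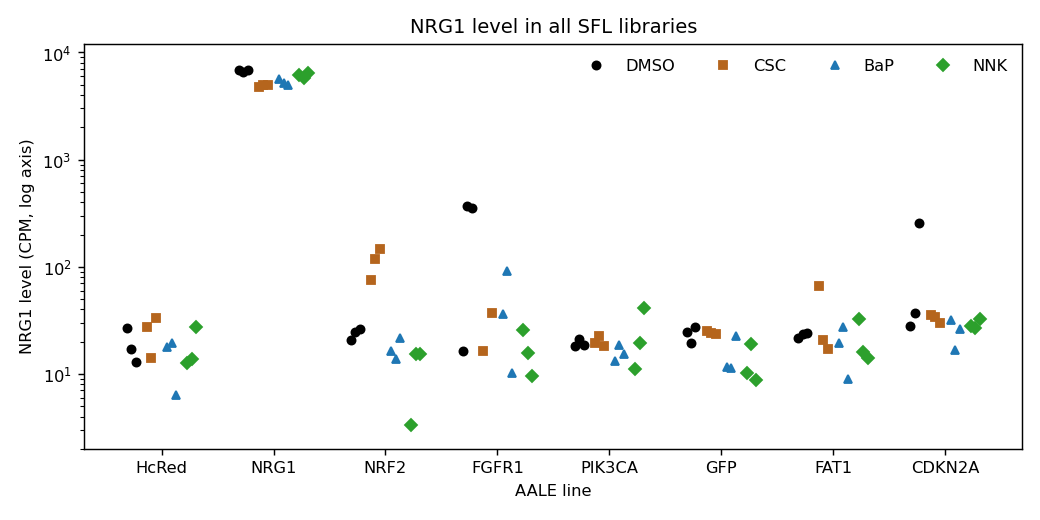
NRG1 level in each of the 95 SFL libraries by line and treatment, in CPM on a log axis, with each point a library. The 12 NRG1 libraries lie between 4715 and 6874 CPM, and libraries of the other lines at or below 372 CPM.

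Between the 2 lines with DMSO, 287 genes (2.04% of those tested) passed an adjusted p of 0.05 in limma-voom. Of these, 154 (1.10%) were higher and 133 (0.946%) were lower with NRG1. Each count of called list members with DMSO below is to be read beside these shares of all genes tested. Changes were mostly small: 30 genes rose and 33 fell by over 2-fold, and the median log2 fold change over all genes tested was 0.00. In bulk samples a change in the RNA of each cell and in the share of cells that express a gene cannot be told apart. The count of genes was 167 without HcRed replicate 1, 168 without HcRed replicate 3, 166 without NRG1 replicate 2, and 72 with DESeq2.

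The receptors that NRG1 acts through were measured first. ERBB3, the receptor that binds NRG1 but has little kinase activity of its own, read 55.2, 48.9 and 57.6 CPM in the HcRed libraries and 34.4, 30.4 and 27.0 CPM in the NRG1 libraries, with no overlap between the groups. It fell by 0.79 on the log2 scale (SE 0.20, adjusted p = 0.0108), and the call was lost without HcRed replicate 1, HcRed replicate 3, NRG1 replicate 2 or NRG1 replicate 3 (adjusted p up to 0.069). With CSC, BaP and NNK, in other libraries of the same lines, the log2 fold change of ERBB3 was -0.65 (adjusted p = 0.00116). DESeq2 did not call ERBB3 between NRG1 and HcRed with DMSO (adjusted p = 0.307). Against the mean of the 6 other lines with DMSO, limma-voom did not call ERBB3 (log2 fold change -0.46, adjusted p = 0.0602). ERBB2, its partner, was at 81.1, 87.6 and 81.4 CPM in the HcRed libraries and 108, 94.7 and 107 CPM in the NRG1 libraries and was not called (log2 fold change 0.33, SE 0.14, adjusted p = 0.255). EGFR was also not called, at 622, 603 and 641 CPM in the HcRed libraries and 626, 693 and 687 CPM in the NRG1 libraries (adjusted p = 0.589). ERBB4 had 1 read in the 6 libraries together. ERBB3 was thus the 1 called among the 3 measured receptors of the family. None of the 8 other EGF family ligands that passed the filter was called, and none of the 8 proteases, adaptors and inhibitors that act on ERBB receptors or their ligands, such as ADAM17 and ERRFI1. EREG, which encodes epiregulin, was 44.2 ± 1.72 CPM with HcRed and 60.9 ± 4.53 CPM with NRG1 (SD, n = 3), with an adjusted p of 0.158 in limma-voom. With carcinogens, EREG and AREG, the ligand amphiregulin, were called higher in the NRG1 line, with log2 fold changes of 0.62 and 1.03.

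Among the 40 gene lists, the one of ERK feedback and target genes held the most genes that rose with NRG1. Of the 19 measured members of the ERK feedback and target list, 18 had a positive log2 fold change, 8 rose and none fell, against 1.10% and 0.946% of all genes, and their median log2 fold change was 0.72. The members that rose were DUSP1, DUSP5, ETV1, ETV5, PHLDA1, CCND1, FOSL1 and EPHA2. PHLDA1, a nuclear protein induced by growth factors, read 38.8, 24.4 and 29.8 CPM in the HcRed libraries and 72.6, 74.1 and 59.7 CPM in the NRG1 libraries (log2 fold change 1.12, SE 0.20, adjusted p = 9.62e-06). The 3 NRG1 libraries were all above the 3 HcRed libraries for this gene. CCND1, which encodes cyclin D1, the partner of CDK4 and CDK6 at the start of the cell cycle, read 149, 142 and 172 CPM in the HcRed libraries and 216, 243 and 204 CPM in the NRG1 libraries (log2 fold change 0.51, SE 0.11, adjusted p = 0.000527). FOSL1, the AP-1 subunit that ERK stabilizes, read 12.1, 12.9 and 8.94 CPM in the HcRed libraries and 29.9, 30.4 and 20.3 CPM in the NRG1 libraries (log2 fold change 1.25, SE 0.32, adjusted p = 0.00933). DUSP5, a nuclear phosphatase of ERK, read 14.7, 10.1 and 6.95 CPM in the HcRed libraries and 20.2, 31.6 and 22.5 CPM in the NRG1 libraries (log2 fold change 1.16, SE 0.33, adjusted p = 0.033). The groups did not overlap for either gene, but FOSL1 lost its call without HcRed replicate 1, HcRed replicate 3 or NRG1 replicate 1 (adjusted p up to 0.126) and DUSP5 without HcRed replicate 1, HcRed replicate 2, HcRed replicate 3 or NRG1 replicate 2 (adjusted p up to 0.322).

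The remaining members that rose had adjusted p of 0.011 (DUSP1) to 0.0466 (ETV1) in limma-voom. ETV1 and ETV5, transcription factors of the PEA3 group, had log2 fold changes of 1.19 ± 0.36 and 0.72 ± 0.20 (± SE, here and below), and the libraries of ETV5 overlapped. DUSP1, which acts on several MAP kinases, rose by 0.51 ± 0.13 and EPHA2, an ephrin receptor, by 0.46 ± 0.13. DUSP6, the cytoplasmic phosphatase specific to ERK, read 16.4, 23.0 and 21.8 CPM in the HcRed libraries and 38.9, 29.1 and 30.4 CPM in the NRG1 libraries without overlap and was not called (adjusted p = 0.0949 in limma-voom). DUSP4, SPRY4 and ETV4 were not called either, with log2 fold changes of 0.37 ± 0.18, 0.93 ± 0.41 and 0.39 ± 0.34. Of the 4 listed members below the filter, DUSP2, DUSP8, IER3 and EPHA4, none had over 5 reads in the 6 libraries together. The number of members called was 2 without HcRed replicate 1 or 3, 4 without NRG1 replicate 1 or 2, 5 without HcRed replicate 2 and 7 without NRG1 replicate 3, and of the 8 genes PHLDA1 and CCND1 kept the call in all 6 of these fits. DESeq2 also called these 2, and the other 6 had adjusted p of 0.297 to 0.69 there.

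Of 14 measured early genes, 3 rose, namely EGR1, CYR61 and CTGF, and none fell, against 1.10% and 0.946% of all genes tested. EGR1, a zinc finger factor switched on within minutes of growth factor stimulation, read 68.2, 136 and 125 CPM in the HcRed libraries and 197, 244 and 152 CPM in the NRG1 libraries. All NRG1 libraries were above all HcRed libraries, but the HcRed libraries themselves spanned 68.2 to 136 CPM. Limma-voom called it (log2 fold change 0.95, SE 0.13, adjusted p = 2.25e-10), and so did every fit without 1 library, whereas DESeq2 did not (adjusted p = 0.695). CYR61, a secreted matricellular protein that serum and YAP induce, read 69.9, 74.7 and 51.6 CPM in the HcRed libraries and 118, 134 and 101 CPM in the NRG1 libraries (log2 fold change 0.87, SE 0.15, adjusted p = 2.45e-06), and its relative CTGF read 4.32, 14.4 and 10.9 CPM in the HcRed libraries and 16.5, 24.3 and 21.4 CPM in the NRG1 libraries (log2 fold change 1.25, SE 0.36, adjusted p = 0.033). The groups did not overlap for these 2 genes, and the call of CTGF was lost without HcRed replicate 1, HcRed replicate 3, NRG1 replicate 2 or NRG1 replicate 3 (adjusted p up to 0.521). FOS, JUN, MYC and ATF3 were not called, with log2 fold changes between -0.01 and 0.53.

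EGR1 is known to be switched on through promoter sites of serum response factor, called CArG boxes. The 250 bases before the start site were read from RefSeq (GRCh38.p14) for the 35 called members of 7 lists (ERK, early, envelope, desmosome, basal, stress keratin and mesenchymal genes), of which 21 had an entry. Among these, EGR1 was the only one with a CArG box (the same letters on both strands), and it had 2, which start 105 and 83 bases before the gene and are in capitals. Over all 27305 promoters in the table, 1.14% hold a CArG box, compared with 4.46% (5 of 112) of those of genes that rose and 1.0% (1 of 100) of those of genes that fell. A match describes the letters in this window, and not that a factor was bound.
EGR1 (chr5:138465229-138465478, plus strand): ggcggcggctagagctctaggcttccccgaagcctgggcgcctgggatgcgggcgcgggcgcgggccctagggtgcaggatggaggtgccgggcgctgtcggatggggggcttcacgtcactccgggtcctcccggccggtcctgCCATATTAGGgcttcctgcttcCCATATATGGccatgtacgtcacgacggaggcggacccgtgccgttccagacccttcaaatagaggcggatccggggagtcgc

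**Figure D2:**
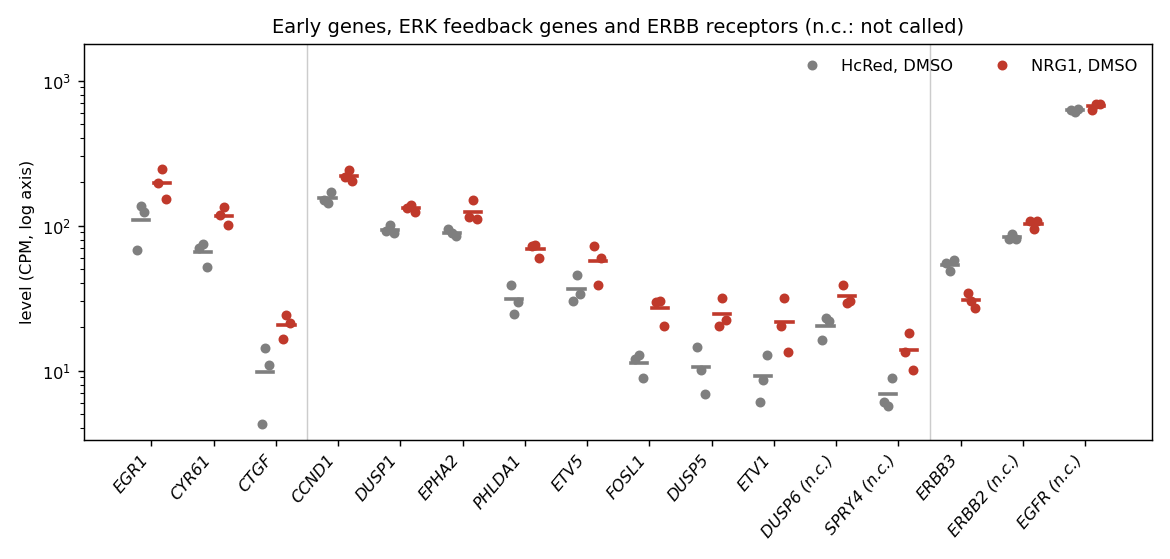
Levels of early genes (left), ERK feedback and target genes (middle) and ERBB receptors (right) in the 3 HcRed and 3 NRG1 libraries with DMSO, in CPM on a log axis; points are libraries, bars are means, and n.c. marks genes that were not called. PHLDA1 lay at 24.4 to 38.8 CPM with HcRed and at 59.7 to 74.1 CPM with NRG1, and ERBB3 is the receptor with lower points.

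Keratins of basal cells were lower with NRG1. Among 13 measured basal genes, KRT5, KRT14, KRT17 and ITGA6 fell and ITGB4 rose. KRT5, the type II keratin that defines basal cells (chr12:52908359-52914314), read 4235, 4096 and 4079 CPM in the HcRed libraries and 2809.9, 2967 and 2935 CPM in the NRG1 libraries (log2 fold change -0.51, SE 0.03, adjusted p = 1.9e-45). KRT14, its usual type I partner (chr17:39738531-39743147), read 545, 608 and 473 CPM in the HcRed libraries and 228, 196 and 249.9 CPM in the NRG1 libraries. That is a log2 fold change of -1.24 ± 0.09 (adjusted p = 7.53e-34), or a level 2.36-fold lower. KRT17, a keratin of activated basal cells, read 1303, 1433 and 1272 CPM in the HcRed libraries and 634, 614 and 701 CPM in the NRG1 libraries (log2 fold change -1.02, SE 0.06, adjusted p = 6e-48). The differences of the 3 keratins were larger than the spread between libraries. For each, every NRG1 library was below every HcRed library, the call held in all 6 fits without a library, and DESeq2 made it too. TP63, the transcription factor that maintains basal cells, was at 183, 185 and 234 CPM in the HcRed libraries and 165, 174 and 152 CPM in the NRG1 libraries and was not called (adjusted p = 0.176). The calls of ITGA6 and ITGB4 were lost in some fits without a library, namely ITGA6 (3 of 6 fits, adjusted p up to 0.324) and ITGB4 (3 of 6 fits, adjusted p up to 0.283).

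KRT16, a stress keratin of wounded and squamous epithelium, was among the largest falls, with 44.9, 41.7 and 32.8 CPM in the HcRed libraries and 5.99, 9.71 and 15.8 CPM in the NRG1 libraries (log2 fold change -2.05, SE 0.31, adjusted p = 8.38e-08). KRT6B, a further stress keratin, had 14, 4 and 14 reads with HcRed and 2, 2 and 2 with NRG1, and was called at an adjusted p of 0.0221 that was lost in 5 of 6 fits without a library (all but that without HcRed replicate 2, adjusted p up to 0.207). KRT6A, by contrast, was at 2169, 2010.1 and 2012 CPM in the HcRed libraries and 1943, 2123 and 2005 CPM in the NRG1 libraries and was not called (adjusted p = 0.766). KRT80 rose (0.57 ± 0.16) with overlapping libraries, and lost its call without HcRed replicate 2, HcRed replicate 3, NRG1 replicate 2 or NRG1 replicate 3 (adjusted p up to 0.239). These were the 3 called among 7 stress and suprabasal keratins (median -1.31). KRT7, a keratin of simple epithelium, fell to 131, 106 and 135 CPM from 224, 185 and 194 CPM (log2 fold change -0.69, SE 0.11, adjusted p = 1.2e-06), and KRT8, KRT18 and KRT19 were not called. Keratin genes have close copies and pseudogenes, so that reads of KRT14, KRT16, KRT17 and the KRT6 genes could be split between them in counting.

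Genes of the squamous envelope were lower with NRG1, most of them at few reads. Of its 26 genes, 12 passed the filter, and 7 of them fell while none rose, against 0.946% and 1.10% of all genes tested. Their median log2 fold change was -1.15, against 0.00 over all genes tested. SPRR1B, a small proline-rich protein that is crosslinked into the envelope (chr1:153003679-153005376), had 25, 9 and 17 reads with HcRed and 0, 0 and 3 with NRG1. With 51 reads against 3, the level was 18.1-fold higher in HcRed (95% exact interval 5.86 to 90.7, counting error only), and limma-voom gave an adjusted p of 4.12e-05. PI3, the elastase inhibitor elafin, had 16, 14 and 12 reads with HcRed and 1, 2 and 0 with NRG1, or 14.9-fold more in HcRed (interval 4.76 to 75.2, adjusted p = 0.000382 in limma-voom). In both genes the 3 NRG1 libraries held 0 to 3 reads each and the 3 HcRed libraries 9 or more. Both passed the filter through their HcRed reads alone, and such genes can appear only as falls. The count of 7 and the median of the list therefore depend in part on the filter.

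CSTA, the protease inhibitor cystatin A, read 76.8, 66.1 and 71.5 CPM in the HcRed libraries and 29.2, 31.6 and 40.5 CPM in the NRG1 libraries (log2 fold change -1.11, SE 0.19, adjusted p = 2.62e-06). KLK5, a protease of shedding squamous cells, read 12.9, 15.8 and 22.8 CPM in the HcRed libraries and 2.25, 1.21 and 6.75 CPM in the NRG1 libraries (log2 fold change -2.41, SE 0.53, adjusted p = 0.00109). SBSN, which encodes suprabasin, had 14, 4 and 9 reads with HcRed and 2, 2 and 0 with NRG1 (adjusted p = 0.021 in limma-voom). SCEL and PPL, which encode sciellin and periplakin, fell by smaller factors (-0.55 ± 0.15 and -0.25 ± 0.07). The groups did not overlap for any of these 5 genes, and all but CSTA lost the call in some fits without a library, namely KLK5 (1 of 6 fits, adjusted p up to 0.0532), SBSN (4 of 6 fits, adjusted p up to 0.133), SCEL (4 of 6 fits, adjusted p up to 0.283) and PPL (3 of 6 fits, adjusted p up to 0.261). IVL, which encodes involucrin, was below the filter with 6 reads in HcRed and 0 in NRG1. The members called numbered 4 without HcRed replicate 1 or NRG1 replicate 1 or 2, 6 without any other library, and 3 with DESeq2 or when genes under a mean of 10 reads were left out.

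Squamous promoters often carry sites of AP-1, the FOS and JUN family (TGANTCA, which reads the same on both strands). In the 250 bases before the start, SPRR1B and SBSN each had 2 matches and SCEL had 1, while 18 of the 21 members searched had none. The share of promoters with a match was 6.6% over all 27305, 4.05% of 10951 genes tested, 4.46% (5 of 112) of those that rose and 7.0% (7 of 100) of those that fell. The 2 promoters with 2 matches are shown with the matches in capitals, in the direction of the gene.
SPRR1B (chr1:153030953-153031202, plus strand): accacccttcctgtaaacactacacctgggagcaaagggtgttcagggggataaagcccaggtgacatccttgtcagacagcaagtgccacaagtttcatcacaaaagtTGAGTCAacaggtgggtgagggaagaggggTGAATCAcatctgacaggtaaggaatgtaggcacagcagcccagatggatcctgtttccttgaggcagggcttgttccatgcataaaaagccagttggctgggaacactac
SBSN (chr19:35528312-35528561, minus strand): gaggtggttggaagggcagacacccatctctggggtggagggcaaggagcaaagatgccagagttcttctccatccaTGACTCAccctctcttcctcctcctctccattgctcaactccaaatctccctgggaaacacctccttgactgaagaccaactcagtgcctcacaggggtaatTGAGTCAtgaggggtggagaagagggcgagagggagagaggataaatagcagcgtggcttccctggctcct

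Desmosomes, the junctions that anchor keratin filaments between cells, showed the same direction in every measured gene. Of 10 measured members, 6 fell and none rose, against 0.946% and 1.10% of all genes tested, and the median log2 fold change was -0.55. DSP, which encodes desmoplakin, the link from the junction to keratin (chr6:7541571-7586947), read 3903, 4006 and 3920.0 CPM in the HcRed libraries and 2589.7, 2525 and 2648 CPM in the NRG1 libraries (log2 fold change -0.59, SE 0.03, adjusted p = 6.58e-53). The desmosomal cadherins DSC2, DSC3 and DSG3 fell by 0.91 ± 0.14, 0.60 ± 0.08 and 0.60 ± 0.10 on the log2 scale. DSG3 was at 290.0, 289 and 283 CPM with HcRed and 191, 186 and 187 CPM with NRG1, a narrow spread in both groups. PKP1 and JUP, plaque proteins of the desmosome, had log2 fold changes of -0.51 ± 0.09 and -0.30 ± 0.08. DSG2, PKP2 and PKP3 were not called. The count of called members was 5 or 6 in each fit without a library, and the call lost was that of JUP (4 of 6 fits, adjusted p up to 0.204). DSG1, which passed the filter through its HcRed reads alone, was not called with 5, 5 and 2 reads in HcRed and none in NRG1 (adjusted p = 0.0568 in limma-voom).

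S100A8 and S100A9 form the heterodimer calprotectin, a calcium-binding alarm protein, and both fell. S100A9 read 93.2, 92.0 and 97.3 CPM in the HcRed libraries and 21.0, 21.9 and 45.0 CPM in the NRG1 libraries (log2 fold change -1.80, SE 0.20, adjusted p = 4.51e-15). S100A8 read 24.2, 14.4 and 21.8 CPM in the HcRed libraries and 4.49, 1.21 and 2.25 CPM in the NRG1 libraries (log2 fold change -2.74, SE 0.54, adjusted p = 0.000142), the steepest fall among called genes that averaged 10 or more reads and whose groups did not overlap. The other 7 measured S100 genes, among them S100A2, S100A6 and S100A10, were not called. SLPI, a protease inhibitor of airway secretions, was the 1 gene called among 7 measured secretory and mucin genes, with 36.3, 23.0 and 32.8 CPM in the HcRed libraries and 13.5, 17.0 and 11.3 CPM in the NRG1 libraries (log2 fold change -1.17, SE 0.29, adjusted p = 0.00653). Its call was lost without HcRed replicate 1 or NRG1 replicate 1 (adjusted p up to 0.0903).

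**Figure D3:**
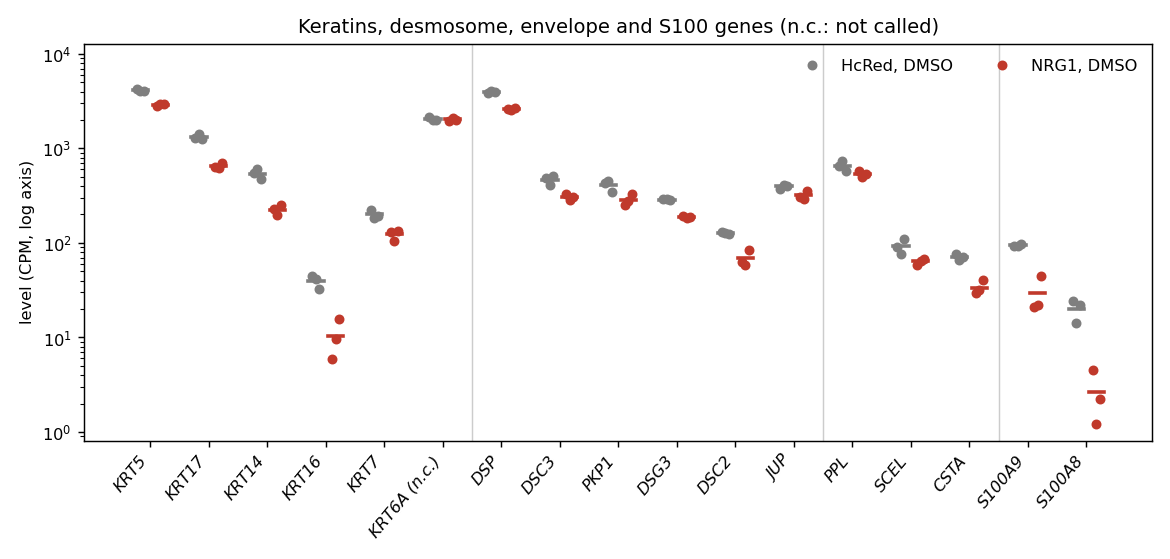
Levels of keratins, desmosome genes, envelope genes and S100 genes (from left to right, parted by grey lines) in the 3 HcRed and 3 NRG1 libraries with DMSO, in CPM on a log axis; points are libraries, bars are means, and n.c. marks a gene that was not called. KRT14 lay at 473 to 608 CPM with HcRed and 196 to 250 CPM with NRG1, while KRT6A overlapped.

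Several genes of the matrix and of mesenchymal cells rose with NRG1. FN1, which encodes fibronectin (chr2:216225163-216300796), read 770.0, 830.5 and 779 CPM in the HcRed libraries and 1714, 1841 and 1742 CPM in the NRG1 libraries (log2 fold change 1.16, SE 0.05, adjusted p = 1.57e-66). VIM, the intermediate filament vimentin of mesenchymal cells (chr10:17270240-17279592), read 46.6, 54.6 and 54.6 CPM in the HcRed libraries and 129, 149 and 119 CPM in the NRG1 libraries (log2 fold change 1.36, SE 0.15, adjusted p = 5.09e-14). THBS1, the matrix protein thrombospondin 1, read 594, 631 and 692 CPM in the HcRed libraries and 1207, 1384 and 1165 CPM in the NRG1 libraries (log2 fold change 0.97, SE 0.06, adjusted p = 1.48e-42). In each of these 3 genes the groups did not overlap, and the call remained without any 1 library and with DESeq2. They do not stand for the whole mesenchymal list, of whose 20 measured members VIM and FN1 rose and SPARC fell (-0.71 ± 0.21, lost in 4 of 6 fits without a library, adjusted p up to 0.238). Of 13 matrix proteases and plasminogen genes, 2 rose, among them SERPINE2 by 0.65 ± 0.18 (lost in 3 of 6 fits without a library, adjusted p up to 0.263), and none fell. CDH1 (E-cadherin) and CDH2 (N-cadherin) were not called, with log2 fold changes of -0.17 ± 0.07 and 1.21 ± 0.40 and adjusted p of 0.238 and 0.0834. The median of the list was -0.10.

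Integrins and laminins, which bind cells to the basement membrane, moved in both directions. Of 17 measured members, 5 rose, among them ITGA3, LAMA5, LAMB1 and THBS1, and ITGB8 fell, against 1.10% and 0.946% of all genes tested. ITGB8, the partner of the alpha V chain that activates TGF-beta, read 183, 207 and 209.5 CPM in the HcRed libraries and 121, 112 and 95.7 CPM in the NRG1 libraries (log2 fold change -0.83, SE 0.12, adjusted p = 3.96e-09). LAMB1, a laminin beta chain, rose by 0.42 ± 0.09 and ITGA3, the alpha chain of a laminin receptor, by 0.39 ± 0.07. LAMA5, a laminin alpha chain, rose by 0.32 ± 0.08, a call that was lost without HcRed replicate 1, NRG1 replicate 2 or NRG1 replicate 3 (adjusted p up to 0.224). LAMA3 and LAMB3, further laminin chains, were not called. The 2 chains of the hemidesmosome integrin went opposite ways by small factors, ITGA6 at -0.22 ± 0.06 and ITGB4 at 0.25 ± 0.06. The list of Hippo and YAP genes had 12 measured members and does not hold CYR61 and CTGF, given above with the early genes. Of the 12, NT5E and AXL rose. FAT1, the gene of a large cadherin that is knocked out in another line, fell (-0.28 ± 0.07). The call of FAT1 was lost without HcRed replicate 1 or NRG1 replicate 1 (adjusted p up to 0.0903) and with DESeq2 (adjusted p = 0.115). NT5E, the ectonucleotidase CD73, read 142, 132 and 148 CPM in the HcRed libraries and 258, 248 and 229.6 CPM in the NRG1 libraries (log2 fold change 0.80, SE 0.11, adjusted p = 3.82e-10).

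Among other receptors, NOTCH3 showed the second steepest fall by the same criteria. This Notch receptor (chr19:15269849-15311806) read 50.9, 46.0 and 46.7 CPM in the HcRed libraries and 9.73, 10.9 and 13.5 CPM in the NRG1 libraries (log2 fold change -2.07, SE 0.29, adjusted p = 2.41e-09). Every NRG1 library was at or below 13.5 CPM and every HcRed library at or above 46.0 CPM. NOTCH1, NOTCH2, JAG1, JAG2 and HES1 were not called, and the 12 measured Notch genes had a median of -0.15. FGFR2 and FGFR3, receptors of fibroblast growth factors, fell, FGFR3 with 88.0, 103 and 88.4 CPM in the HcRed libraries and 44.2, 42.5 and 57.4 CPM in the NRG1 libraries (log2 fold change -0.94, SE 0.16, adjusted p = 5.21e-06) and FGFR2 with 33.7, 37.4 and 29.8 CPM in the HcRed libraries and 12.7, 15.8 and 14.6 CPM in the NRG1 libraries (log2 fold change -1.20, SE 0.28, adjusted p = 0.00275). FGFR2 lost its call without NRG1 replicate 1 (adjusted p = 0.0697). AXL, the receptor of GAS6, rose (0.57 ± 0.13), which was lost without HcRed replicate 1 or NRG1 replicate 3 (adjusted p up to 0.0535), and EGFR, MET and IGF1R were not called.

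Genes of amino acid and sterol supply made up a smaller group of rises. Of 19 measured ATF4 targets, 5 rose (DDIT4, TRIB3, PSAT1, MTHFD2 and CEBPB) and none fell, against 1.10% and 0.946% of all genes tested. The median of the list was 0.35. DDIT4 and PSAT1 kept the call in every fit without a library, and the other 3 lost it, namely TRIB3 (6 of 6 fits, adjusted p up to 0.26), MTHFD2 (3 of 6 fits, adjusted p up to 0.104) and CEBPB (2 of 6 fits, adjusted p up to 0.254). PSAT1, an enzyme of serine synthesis, read 195, 203 and 199 CPM in the HcRed libraries and 308, 290.2 and 276 CPM in the NRG1 libraries (log2 fold change 0.57, SE 0.10, adjusted p = 2.39e-06). DDIT4, an inhibitor of mTORC1, read 363, 355 and 329.6 CPM in the HcRed libraries and 481, 468 and 504 CPM in the NRG1 libraries (log2 fold change 0.48, SE 0.08, adjusted p = 9.09e-07), and SLC7A11, the cystine transporter and the 1 gene called of 20 NRF2 targets, read 137, 116 and 174 CPM in the HcRed libraries and 259.8, 206 and 186 CPM in the NRG1 libraries (log2 fold change 0.63, SE 0.11, adjusted p = 1e-05). These 3 metabolic genes were higher in every NRG1 library than in any HcRed library. Of 20 cholesterol genes, 3 rose, among them HMGCS1 and CYP51A1, with log2 fold changes of 0.47 ± 0.08 and 0.38 ± 0.09. MT2A and MT1E, metallothioneins that bind zinc and copper, rose by 0.60 ± 0.06 and 0.56 ± 0.11. Their family has near-identical members, so that reads could be split. Among these 4 genes calls were lost in some fits without a library for CYP51A1 (1 of 6 fits, adjusted p up to 0.0672) and MT1E (1 of 6 fits, adjusted p up to 0.124).

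Ribosomal protein genes had small differences of one sign. Of 33 measured genes, 32 had a positive log2 fold change, against 7085 of all 14053 genes tested. The number was also 32 when scaled by DESeq2 size factors or by library size alone. With TMM, 5 were called higher (RPL13, RPL19, RPL23, RPL27 and RPLP1, from 0.21 to 0.37), against 1.10% of all genes tested. The median was 0.20 with TMM and 0.18 with library size alone, where 3 were called. All 5 calls were lost in some fits without a library, namely RPL13 (4 of 6 fits, adjusted p up to 0.23), RPL19 (6 of 6 fits, adjusted p up to 0.217), RPL23 (4 of 6 fits, adjusted p up to 0.319), RPL27 (3 of 6 fits, adjusted p up to 0.178) and RPLP1 (1 of 6 fits, adjusted p up to 0.268), and DESeq2 made none of them (adjusted p of 0.227 to 0.61). Processed pseudogenes of these genes could take part of their reads.

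Lists of proliferation and stress held 0 to 2 called genes each, and with 1.10% of all genes higher and 0.946% lower such counts are not read as a result about a list. Of 27 genes of DNA replication, RRM2 rose (0.32 ± 0.08), and of 25 mitosis genes CENPE fell (-0.31 ± 0.07). Of 20 p53 targets AEN rose, and of 16 measured FOXO targets and insulin receptor substrates SESN3 fell (-0.44 ± 0.12). No member was called among 30 interferon-stimulated genes, 18 TGF-beta and activin genes, 14 Wnt genes, 12 interleukin and chemokine genes, 5 AhR targets or 5 genes of MHC class I presentation. Rises of 1 or 2 genes came from glycolysis and hypoxia (GAPDH and VEGFA of 25), the unfolded protein response (HSPA5 of 15) and fatty acid synthesis (ACLY of 8). GAPDH, at 0.31 ± 0.05, was the 1 gene of this paragraph that kept its call in every fit without a library, and adjusted p of the others reached 0.0636 (HSPA5) to 0.576 (ACLY) in such fits.

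Of the 275 called genes that averaged 10 or more reads, 248 had groups that did not overlap (137 higher and 111 lower). Lack of overlap thus adds little to a call, and its share over all genes tested is not given here. These 248 genes were ranked by size, and the largest rises after NRG1 were in genes of few reads. TCEA2, an elongation factor, had 3, 4 and 7 reads with HcRed and 19, 12 and 18 with NRG1 (log2 fold change 1.72 ± 0.45). IGF2BP1, an oncofetal RNA-binding protein (chr17:47074747-47133507), had 11, 5 and 5 reads with HcRed and 26, 18 and 25 with NRG1 (1.60 ± 0.38). The remaining large rises were SNORA51, DPYSL3, TENM3, SMOC1, VIM, NUBP1, SPHK1, AOX1, ZFHX4, FOSL1, CTGF and AEN, from 1.45 down to 1.23. Of these, VIM and ZFHX4 kept their call in all 6 fits without a library, IGF2BP1 and TENM3 in all but that without HcRed replicate 3 (adjusted p = 0.0941 and 0.23), and SNORA51 in none.

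Of the 15 largest falls by the same rule, 10 kept their call in every fit without a library, against 3 of the 15 largest rises. After S100A8, NOTCH3 and KRT16 came, among others, TSPAN7, S100A9, NPNT, ACYP2, SLC6A11, MYH14, BBS9, KRT14, FGFR2, SLPI and CSTA, from -1.82 to -1.11. TSPAN7, a tetraspanin, read 66.5, 69.0 and 55.6 CPM in the HcRed libraries and 12.7, 24.3 and 20.3 CPM in the NRG1 libraries (log2 fold change -1.82, SE 0.24, adjusted p = 7.96e-11). NPNT, which encodes the basement membrane protein nephronectin, read 51.8, 38.8 and 45.7 CPM in the HcRed libraries and 12.7, 10.9 and 22.5 CPM in the NRG1 libraries (log2 fold change -1.63, SE 0.27, adjusted p = 7.89e-07). BBS9, a subunit of the ciliary BBSome, read 144, 115 and 154 CPM in the HcRed libraries and 62.1, 52.2 and 56.3 CPM in the NRG1 libraries (log2 fold change -1.26, SE 0.15, adjusted p = 3.85e-13). The rule that named these 3 genes asks for groups without overlap, so that their separation is not a further result. ACYP2 kept its call in 1 of 6 fits.

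The same 2 lines were measured in 18 further libraries with CSC, BaP or NNK, none of them used above. There 907 of 14210 genes (6.38%) were called between NRG1 and HcRed with treatment in the model, 441 higher (3.10%) and 466 lower (3.28%). Of the 287 genes called with DMSO, 278 had the same sign and 187 (65.2%) were called in the same direction, 97 of the 154 that rose and 90 of the 133 that fell. These are other wells of the same lines, so that a lasting difference between the lines counts in both. KRT14 was at 327 to 629 CPM (median 375) in the 9 HcRed libraries and 126 to 223 CPM (median 162) in the 9 NRG1 libraries with carcinogens (log2 fold change -1.32). VIM was at 25.5 to 69.6 CPM and 78.1 to 123 CPM respectively (1.39), and for both genes the groups did not overlap. In the ERK list 10 of 19 were higher and none lower with carcinogens, with a median of 0.38, and DUSP6 was then called (0.83, adjusted p = 5.91e-06 in limma-voom). In the envelope list 11 of 12 were lower (median -1.75), and in the desmosome list 6 of 9.

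Whether the difference between the lines itself changed with carcinogens was tested over the 24 libraries. No gene passed in limma-voom or in DESeq2 (614 at an unadjusted p under 0.05 in limma-voom), 2 genes passed in limma-voom without NRG1 replicate 3 with DMSO, and edgeR called 3, among them EGR1 and TSPAN7. EGR1 was 0.95 higher with DMSO and 0.20 higher with carcinogens on the log2 scale (difference -0.74, adjusted p = 0.31 in limma-voom and 0.0403 in edgeR). TSPAN7 was -1.82 with DMSO and -0.33 with carcinogens, where it was not called (adjusted p of the difference 0.31 in limma-voom and 0.0403 in edgeR).

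**Figure D4:**
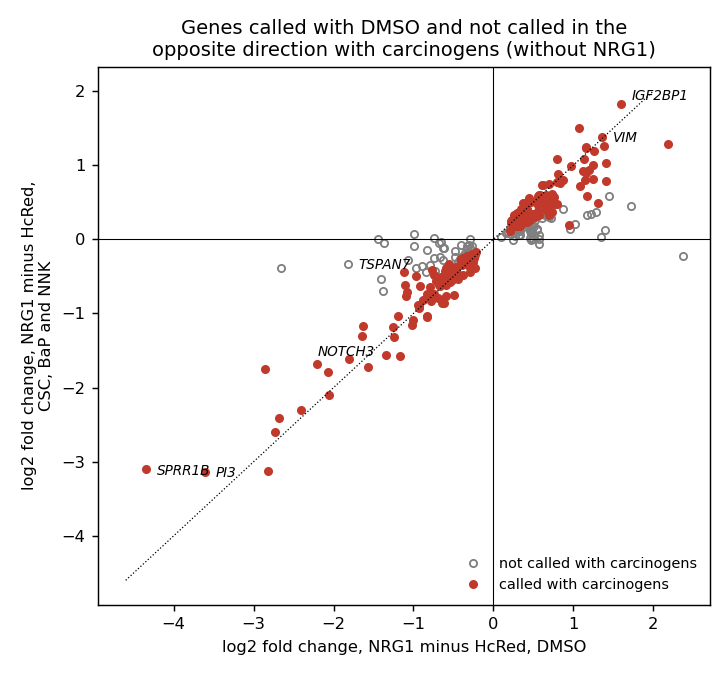
Log2 fold change of NRG1 minus HcRed with DMSO (x axis) and with CSC, BaP and NNK (y axis) for the genes called with DMSO, other than NRG1 and any called in the opposite direction with carcinogens; each point is a gene, filled where it was also called with carcinogens, and the dotted line marks equal values. Of all 287 genes, 278 have the same sign in both.

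The last comparison set the NRG1 line against the mean of the 6 other lines with DMSO. It tells whether a gene that differs from HcRed also differs from that mean, while single lines can lie on either side of NRG1. It shares the 3 NRG1 libraries with the comparison above, so the 2 sets of values are given side by side and not counted against each other. Of 14502 genes, 1253 (8.64%) were called, 911 higher (6.28%) and 342 lower (2.36%), and 1124 (766 and 358) without the 3 libraries of other lines that held over 100 NRG1 reads. The count was 730 without NRG1 replicate 1 and 762 without NRG1 replicate 2. NRG1 itself was 7.57 ± 0.23 higher on the log2 scale, and 8.21 ± 0.09 without those libraries.

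Several matrix genes of the NRG1 line were also above the mean of the other lines. VIM was 1.89 ± 0.11 higher than their mean (adjusted p = 6.75e-25 in limma-voom), with 119 to 149 CPM in NRG1, 148 to 172 in PIK3CA, 71.6 to 98.3 in FGFR1 and 16.7 to 24.9 in GFP. PIK3CA, whose VIM range lies above that of HcRed, overlapped with NRG1. FN1 was 1.98 ± 0.04 higher, with 1714 to 1841 CPM in NRG1 and 1451 to 1698 in PIK3CA, the next line in order, without overlap. THBS1 was higher by 1.55 ± 0.06, and the THBS1 levels of CDKN2A (968 to 1225 CPM) overlapped with those of NRG1 (1165 to 1384 CPM). In the ERK list 15 of 19 members were called above the mean of the other lines and none below, among them DUSP6 (1.55 ± 0.21). DUSP6 was nevertheless highest in CDKN2A, at 69.5 to 89.7 CPM against 29.1 to 38.9 CPM in NRG1, and PIK3CA overlapped with NRG1. PHLDA1 also overlapped, with 59.7 to 74.1 CPM in NRG1, 69.5 to 108 in CDKN2A and 51.5 to 67.5 in PIK3CA. EGR1, of the early genes, was at 152 to 244 CPM in NRG1 and 144 to 232 in PIK3CA. For PHLDA1 the FAT1, FGFR1, GFP and NRF2 libraries lay below NRG1, and for EGR1 these and CDKN2A did.

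Genes of the envelope list that were lower than in HcRed were mostly not called against the other lines, while some keratin and desmosome genes were. S100A9 was not called (-0.06 ± 0.20, adjusted p = 0.918 in limma-voom), with 21.0 to 45.0 CPM in NRG1, 92.0 to 97.3 in HcRed, 158 to 203 in NRF2 and 7.53 to 11.3 in FAT1. KRT14 was -0.14 ± 0.08 (adjusted p = 0.334), with levels of 35.8 to 57.2 CPM in FAT1, the lowest line, and 606 to 712 CPM in NRF2, which overlapped with HcRed. KRT16, KRT5 and KRT17 were called lower than the mean of the other lines (-1.14 ± 0.31, -0.24 ± 0.03 and -0.28 ± 0.06, adjusted p = 0.0106, 1.19e-10 and 0.000492 in limma-voom). In the desmosome list 5 of 10 were called lower than the mean of the other lines and none higher. For KRT14 and S100A9 HcRed had the highest mean after NRF2 among the 8 lines. SPRR1B, PI3, SBSN, KLK5 and S100A8 were not called against the other lines either, and of the 12 envelope genes CSTA was the 1 that was lower (-0.69 ± 0.16). KRT7 and SLPI were lower than in HcRed and higher than the mean of the other lines (1.08 ± 0.18 and 0.82 ± 0.28). That mean spans unlike lines for KRT7, which was at 106 to 135 CPM in NRG1 and 447 to 493 in FGFR1. It was at 658 to 730 CPM in NRF2 and 897 to 1080 in PIK3CA, but at or below 33.5 CPM in GFP, FAT1 and CDKN2A. SPARC and ITGA6 were also lower than in HcRed and higher than that mean (0.97 and 0.34). TENM3 went the opposite way (-0.76 against the mean). DSP, NOTCH3, FGFR2 and FGFR3 were lower against both, at -0.46 ± 0.04, -1.96 ± 0.30, -0.97 ± 0.23 and -0.97 ± 0.14 against the mean of the other lines. For DSP and NOTCH3 single lines nevertheless overlapped with NRG1. DSP was at 2525 to 2648 CPM in NRG1, 2306 to 2778 in PIK3CA and 2487.5 to 2562 in CDKN2A. NOTCH3 was at 9.73 to 13.5 CPM in NRG1, 10.4 to 23.9 in CDKN2A and 18.0 to 23.4 in PIK3CA.

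The lines differed in genes that no perturbation targets. TERT, the telomerase subunit, was named after its values were seen. It read 323, 346 and 289 CPM in the HcRed libraries and 167, 187 and 145 CPM in the NRG1 libraries (log2 fold change -0.93, SE 0.10, adjusted p = 1.75e-15) and ranged over the lines from 4.14 to 11.3 CPM in FAT1 to 1101 to 1228 CPM in PIK3CA. Against the mean of the other lines with DMSO, TERT was called higher in the NRG1 line (log2 fold change 0.62, adjusted p = 0.000154 in limma-voom). The counts do not separate reads of the cells' own TERT gene from those of any introduced copy. All libraries of GFP, FAT1 and CDKN2A lay below those of HcRed and NRG1. The part of such differences between lines in the values above was not tested.

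**Figure D5:**
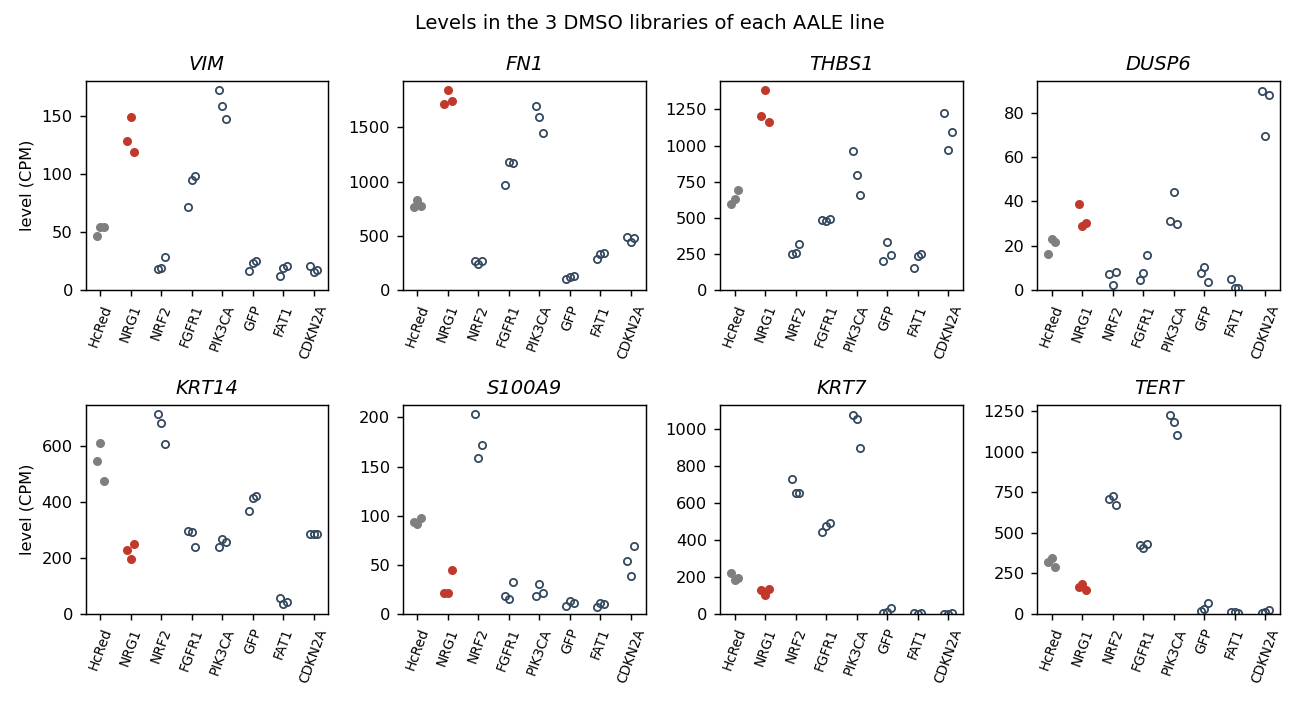
Levels of 8 genes in the 3 DMSO libraries of each of the 8 AALE lines, in CPM on linear axes from 0; each point is a library, with HcRed in grey, NRG1 in red and the other lines as open points. FN1 lies at 1714 to 1841 CPM in NRG1, above all other libraries, VIM is highest in PIK3CA and NRG1, and TERT spans 4.14 to 1228 CPM over the lines.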

How the data were processed

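SFL libraries of AALE cells were sequenced as single reads. The authors trimmed adapters with cutadapt 1.12, checked reads with FastQC 0.11.5, aligned them to hg19 with STAR 2.5.2b and counted reads per RefSeq gene with featureCounts of the Subread package. The authors deposited raw counts, 1 whole number per gene symbol and library. The strand setting of the counting is not given in the sources used here, so reads of overlapping antisense genes may be included.

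Genes with a mean count above 1 over the libraries fitted were tested with limma 3.58.1 (voom, TMM factors from edgeR 4.0.16, R 4.3.3), 2-sided, with Benjamini-Hochberg adjustment over all genes tested and a threshold of 0.05. Only the libraries compared entered the fit of NRG1 and HcRed with DMSO. Carcinogen libraries were fitted with treatment as a term, and lines with DMSO over all 24 such libraries. Printed levels are CPM with TMM factors over the 95 libraries, and intervals cover counting error only. Scripts were tested on simulated data. Named genes are NRG1, the 15 largest rises and falls among called genes that averaged 10 or more reads with groups that did not overlap, and members of 40 lists taken from general knowledge. Some genes that this rule names are not reported here. The genes and lists were chosen with earlier results of these data known. Positions are from GENCODE on GRCh37 (86.89% of symbols matched) and promoters from RefSeq on GRCh38.p14. Same-numbered libraries did not deviate together (correlations -0.05 to 0.02), so the numbers were not taken as pairs. All replicate pairs of the 2 groups with DMSO differed by more than sampling noise. Alternatives were DESeq2 1.42.0, the quasi-likelihood test of edgeR, other scalings and filters, the replicate number as a block, a GC content and length correction (loess span 0.3) and leaving out each library. Leaving out the libraries of other lines with over 100 NRG1 reads, the counts of list members under each alternative, and the fit of genes of known GC content without correction were added after seeing the data.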

Additional observations from a re-analysis of the deposited data

How the results depend on the processing

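The 287 genes called between NRG1 and HcRed with DMSO became 72 with DESeq2, 432 with the replicate number as a block, 471 with a GC content and length correction and that block, and 166 to 274 when 1 library was left out; all other alternatives stayed within 1.5 times. Same-numbered libraries did not deviate together, so the block is not taken as a pairing. The 1253 genes called against the other lines became 670 with DESeq2 and 730 to 1275 without 1 library. The 0 genes for the difference between carcinogens and DMSO became 3 with edgeR, 1 with the block, and 0 to 2 without 1 library. The 8 ERK members called became 2 with DESeq2, 5 with no filter on low counts, 4 with 24 libraries with DMSO fitted together, and 2 to 7 without 1 library. The 7 envelope members became 3 with DESeq2 or without genes under a mean of 10 reads, and 4 to 6 without 1 library. The log2 fold change of KRT6A, not called at -0.04, lay between -0.0698 and 0.0069 without 1 library, and it changed sign without HcRed replicate 1. Of 98 named genes called, 42 were called in all 6 fits without a library and 56 lost the call in at least 1, and 40 were called by DESeq2, 91 by edgeR and 96 with the block. The limma-voom fit with DMSO drew each gene's spread almost wholly from the common trend (prior degrees of freedom 361), and EGR1, whose HcRed replicates differed widely, was not called by DESeq2. At this depth genes with a few reads can be called for large changes only.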
